A study of Rattus norvegicus with 16 samples.

Results

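Biglycan (Bgn), decorin (Dcn), S100a4 and Mmp12 were followed across 16 arrays of the EDL (extensor digitorum longus), a fast muscle in the lower leg of the rat. The genes were found by platform symbol, and each had 1 probe (RA0156, RA0221, RA0071 and RA1303), giving 4 of 1096 named genes on 1176 tested probes. They were picked because their values were higher in denervated than in control muscle, so their group differences are given as a description, without a test. What that choice did not use, namely the other measured genes of the extracellular matrix and the co-variation of the 4 genes between rats of the same group, is reported with tests.

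The control group comprised 8 arrays of innervated EDL from Brown Norway rats aged 6 months, and the denervated group 8 arrays of EDL denervated for 2 months from rats with the same stated age and strain. The labels name no other treatment or genotype. They do not say how the nerve was interrupted or whether equal rat numbers in both groups mark 1 animal, and each array was taken as 1 rat. RNA was hybridised to nylon cDNA membranes. The deposited values are on a logarithmic scale whose base is not given in the sources used here, so differences are given in log units and not as folds.

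The array of control rat 6 lay lower than the others, with a mean of 6.63 log units where the other 15 arrays had means from 8.19 to 8.31. Each array repeated its lowest value, here called its floor, on 22 to 206 probes, and such a value is only an upper bound. None of the 64 values of the 4 genes was at a floor. Across groups, arrays of the same set of rats (1 to 4 or 5 to 8) resembled each other more than arrays of different sets. The mean correlation of deviations was 0.11 within sets and -0.11 between them. The labels do not name such sets, and the likeness was seen in these same data. Values within each set are therefore given as well. Among 6 measured muscle markers, Ckm, the muscle creatine kinase (13.01 ± 1.88 log units in control, SD, n = 8), and Pgam2, the muscle phosphoglycerate mutase (11.97 ± 1.27), were bright. Control means of Tpm2, Mylk2 and Cacna1s were 11.78, 10.61 and 10.59. Tpm1, a tropomyosin, was low in control at 5.88 ± 1.20 and read the floor on 5 control and 4 denervated arrays. Probes on such membranes can bind transcripts of close relatives.

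Biglycan and decorin are small leucine-rich proteoglycans, secreted core proteins that carry glycosaminoglycan chains, bind collagen and regulate the assembly of its fibrils. Both also bind growth factors of the TGF-beta family, and in muscle they lie in the connective tissue around fibres. S100a4 is a calcium-binding protein of the S100 family, known from fibroblasts and other motile cells including macrophages. Mmp12, macrophage metalloelastase, is a secreted protease that cleaves elastin and other matrix proteins.

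RefSeq promoters of S100a4 and Mmp12 were at hand here, and those of biglycan and decorin were not used. The 250 bases before the transcription starts are shown for assembly GRCr8, the S100a4 stretch at chr2:178388279-178388528 and the Mmp12 stretch at chr8:12866402-12866651, both on the plus strand and 5′ to 3′. Capitals mark matches on either strand to TATAAA and to the AP-1 motif TGANTCA.
S100a4: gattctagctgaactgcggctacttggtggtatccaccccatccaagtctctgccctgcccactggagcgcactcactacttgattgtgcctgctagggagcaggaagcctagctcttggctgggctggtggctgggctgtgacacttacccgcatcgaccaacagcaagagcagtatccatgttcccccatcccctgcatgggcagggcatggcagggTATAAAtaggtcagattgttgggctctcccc
Mmp12: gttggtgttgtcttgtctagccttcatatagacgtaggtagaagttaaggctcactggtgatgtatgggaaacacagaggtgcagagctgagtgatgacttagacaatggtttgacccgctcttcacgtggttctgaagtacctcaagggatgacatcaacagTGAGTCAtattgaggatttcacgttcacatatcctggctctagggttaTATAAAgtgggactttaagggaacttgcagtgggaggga

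Both stretches held TATAAA, beginning at position -31 in S100a4 and -39 in Mmp12 relative to the start, as did 12.93% of 33469 promoters of this length. The Mmp12 stretch also held an AP-1 match at -87, a motif found in 6.34% of the promoters. An E-box (CANNTG) occurred in Mmp12 at -126, as CACGTG, and in 65.54% of all promoters. AP-1 is a dimer of Fos and Jun proteins known to act on several metalloproteinase genes. The motifs do not overlap each other. A match describes these letters and is no evidence of a bound factor.

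Biglycan values in control rats 1 to 8 ranged from 5.56 to 9.18 log units with a median of 8.71, the lowest being that of rat 6. In denervated rats they ranged from 10.06 to 10.93 with a median of 10.62. The groups did not overlap. The means were 8.26 ± 1.19 and 10.56 ± 0.27 (SD, n = 8 each), a difference of 2.30 (SE 0.39). Without control rat 6 the control mean was 8.64 ± 0.52 (SD, n = 7) and the difference was 1.92, so this array set most of the control spread.

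Biglycan also moved within the ranking of each array. In control muscle between 25.1% and 76.5% of probes on the same array had a lower value, and in denervated muscle between 90.0% and 94.5%. This position does not depend on the scale or on the level of the array, and here too the groups did not overlap.

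Decorin had control values from 9.05 to 12.01, with a median of 10.74, and denervated values from 11.38 to 12.77, with a median of 12.28. The groups overlapped, since control rats 1, 2 and 4 reached 11.56, 12.01 and 11.60. The means were 10.77 ± 0.97 and 12.17 ± 0.51 (SD, n = 8 each), a difference of 1.40 (SE 0.42). In contrast to biglycan, decorin was already among the brightest probes in control muscle. There 96.6% to 98.4% of probes were lower, against 97.8% to 99.2% in denervated muscle.

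The decorin difference varied between sets of rats more than that of the other 3 genes, with 0.68 among rats 1 to 4 against 2.13 among rats 5 to 8, and this contrast between sets was not tested. Among controls, rats 1 to 4 had 11.56, 12.01, 10.83 and 11.60, and rats 5 to 8 had 10.65, 9.05, 9.97 and 10.46. The denervated values of the sets lay closer together, at 12.48, 12.09, 11.38 and 12.77 in rats 1 to 4 and 11.76, 12.59, 11.71 and 12.57 in rats 5 to 8. The set contrast thus lay mainly on the control side. Quantile normalisation, which gives every array the same distribution, left a decorin difference of 0.39.

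S100a4 had control values from 7.85 to 10.60, with a median of 9.33, and denervated values from 11.22 to 12.80, with a median of 12.12. The groups did not overlap. With means of 9.18 ± 1.03 and 12.07 ± 0.62 (SD, n = 8 each), its difference of 2.88 (SE 0.40) was the largest of the 4 and the 8th highest among all 1176 probes. Biglycan ranked 12th, decorin 49th and Mmp12 84th. In control muscle 44.7% to 90.2% of probes were lower than S100a4 on the same array, and in denervated muscle 97.6% to 99.0%. Among rats 1 to 4 the S100a4 difference was 2.73, and among rats 5 to 8 it was 3.04.

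Mmp12 had control values of 8.25, 9.98, 9.64, 9.33, 8.31, 7.69, 9.06 and 9.52 in rats 1 to 8, and denervated values of 10.61, 10.15, 9.98, 10.63, 9.72, 10.37, 9.78 and 9.82. Control rat 2 equalled denervated rat 3 and exceeded denervated rats 5, 7 and 8, so the groups overlapped at their edges. The means were 8.97 ± 0.80 and 10.13 ± 0.37 (SD, n = 8 each), a difference of 1.16 (SE 0.36). By position on the array they overlapped as well, with 47.7% to 86.2% of probes lower in control and 83.1% to 90.0% in denervated muscle. The sets of rats gave 1.04 and 1.28.

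**Figure D1:**
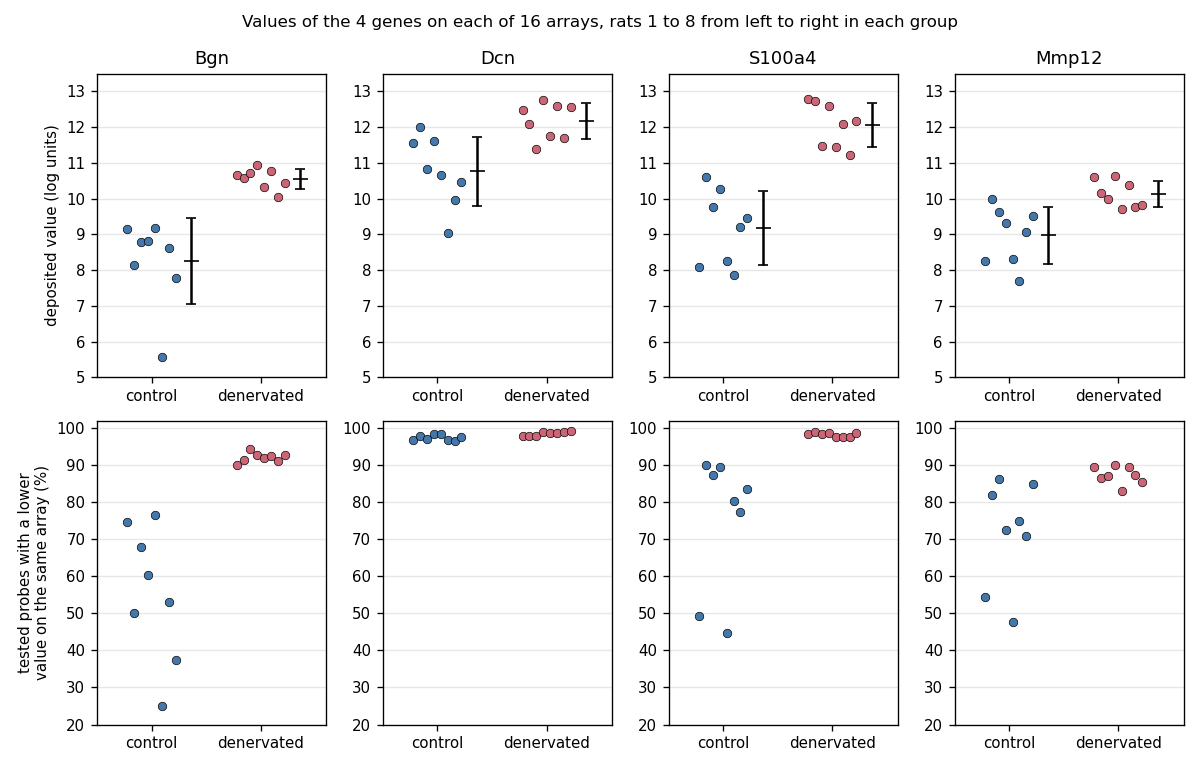
Values of Bgn, Dcn, S100a4 and Mmp12 on each array, with rats 1 to 8 from left to right in each group. The upper row shows deposited values in log units with the mean and SD beside the points, and the lower row the percent of tested probes with a lower value on the same array; Bgn and S100a4 separate the groups in both rows, while Dcn and Mmp12 overlap.

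In all, 2 of the 4 genes had groups that did not overlap, where 1.19% of all probes did so with higher denervated values. As the members were selected on this contrast, nothing is read from that count. The spread between rats was smaller after denervation for each of the 4 genes, with SDs from 0.27 to 0.62 against 0.80 to 1.19 in control. The median SD over all probes was 0.772 in denervated and 0.987 in control muscle. After centring of each array on its median, the SDs of biglycan were 0.48 and 0.80, and those of S100a4 0.78 and 0.91, so the gap was narrower. In bulk muscle, more cells of a type and more RNA per cell cannot be told apart.

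Leaving out any 1 array moved the differences to between 1.92 and 2.44 for biglycan, 1.16 and 1.58 for decorin, 2.69 and 3.09 for S100a4 and 0.98 and 1.30 for Mmp12. The lowest value came in each case without control rat 6. The median difference over all probes was 0.22, and 0.01 after centring. Centring gave 2.09 for biglycan, 1.19 for decorin, 2.68 for S100a4 and 0.95 for Mmp12. Quantile normalisation gave 1.84, 0.39, 2.23 and 0.76 in the same order. Decorin, already near the top of each array, had the lowest quantile-normalised value.

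**Figure D2:**
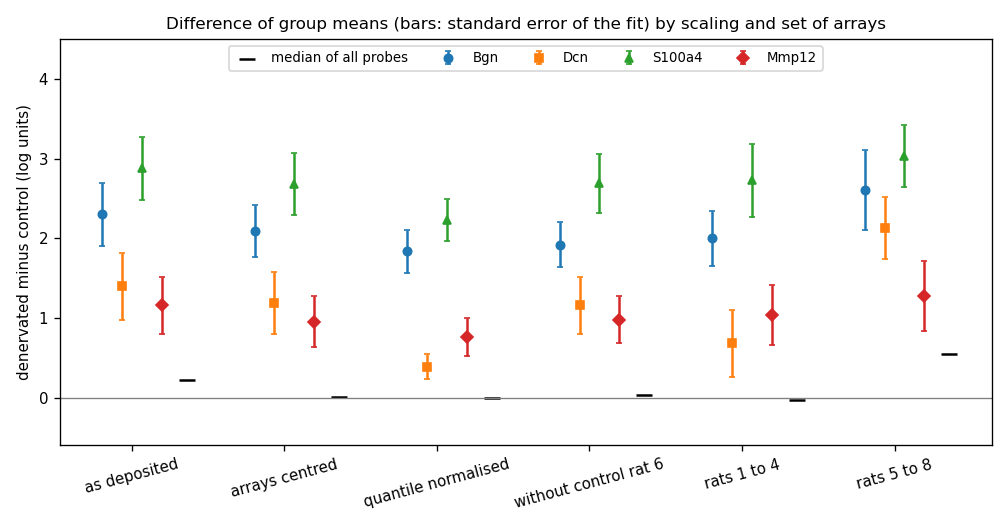
Denervated minus control difference of each gene in log units, with the standard error of the fit as bars, for values as deposited, centred or quantile normalised, without control rat 6, and within each set of rats; black dashes mark the median of all probes. S100a4 and Bgn stay above 1.8 in every setting shown, while Dcn ranges from 0.39 to 2.13.

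Whether other matrix genes differed as well was asked of 47 measured genes in 9 lists (proteoglycans, glycosaminoglycan enzymes, fibrous and adhesive proteins, metalloproteinases, other proteases and inhibitors, S100 proteins and annexins, the TGF-beta and BMP pathway, and matrix receptors), without the 4 genes themselves. In limma's test with Benjamini-Hochberg adjustment over all probes, 1 of the 47 rose and none fell, while 6.29% of all probes passed, 5.44% as higher and 0.85% as lower. At an unadjusted p under 0.05 the count was 9 of 47, beside 211 of 1176 for all probes. Exact permutation of the arrays with adjustment called 2 of the 47, beside 67 of 1176 for all probes. The 2 were Acvr1c as higher and S100a9 as lower. The median difference of the 47 was 0.19, close to the 0.22 of all probes.

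The gene that rose was Eln, which encodes elastin, the rubber-like fibre protein that Mmp12 is named for cleaving. Its control values were 9.72, 10, 9.83 and 9.55 in rats 1 to 4 and 8.73, 6.81, 7.67 and 6.20 in rats 5 to 8, the last at its array's floor. The denervated values were 10.96, 10.58, 10.57 and 10.39 in rats 1 to 4 and 9.99, 10.05, 9.55 and 9.58 in rats 5 to 8. Each denervated value exceeded each control value of the same set of rats, and the groups overlapped across sets. Elastin differed by 1.64 (SE 0.43, limma adjusted p = 0.0133, higher in denervated rats). Among rats 1 to 4 it was 0.85 (limma adjusted p = 0.261), and among rats 5 to 8 it was 2.44 (limma adjusted p = 0.000705). With the set of rats as a block the call was kept (limma adjusted p = 0.00038), and so it was with rat number as a block (limma adjusted p = 0.000176). The call was lost without control rat 8 (difference 1.30, limma adjusted p = 0.0548), with a common floor (1.58, limma adjusted p = 0.0632) and by exact permutation (adjusted p = 0.0691). With centred arrays and with quantile-normalised ones the difference was 1.43 each time, and limma's adjusted p was 0.0566 and 0.0663.

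Among fibrous and adhesive proteins Eln was the 1 gene of 8 that passed. Sparc, a collagen-binding matricellular glycoprotein, differed by 1.08 (limma adjusted p = 0.145) and Plod1, an enzyme that hydroxylates collagen lysines, by 0.89 (adjusted p = 0.179). In rats 5 to 8 alone Sparc passed, at 1.82 (adjusted p = 0.000371), and it did so with the set of rats as a block (limma adjusted p = 0.0298). Quantile normalisation left it at 0.09 (limma adjusted p = 0.815).

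Fibromodulin (Fmod), another small leucine-rich proteoglycan that binds collagen, was measured beside biglycan and decorin. Its mean was 11.10 ± 0.78 in control and 11.70 ± 1.55 in denervated muscle (SD, n = 8 each), a difference of 0.59 (SE 0.49, limma adjusted p = 0.548). The direction turned after quantile normalisation, to -0.46, and in rats 1 to 4, to -0.30. Denervated rat 3 had the lowest value, 8.31, and without it the difference was 1.08 (adjusted p = 0.152). In rats 5 to 8 fibromodulin passed, at 1.49 (adjusted p = 0.00543).

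None of 10 other proteoglycan and hyaluronan genes passed in limma (0 before adjustment, 0 by exact permutation). Sdc4, the cell-surface heparan sulphate proteoglycan syndecan-4, stood at 0.86 (adjusted p = 0.340), Bcan, a brain lectican that read its floor in 5 control and 4 denervated rats, at -1.08 (adjusted p = 0.374; -0.23 with a common floor), and Has2, a hyaluronan synthase, at 0.73 (adjusted p = 0.494). Of 5 genes listed under glycosaminoglycan synthesis and turnover none passed either (0 before adjustment, 0 by exact permutation). The lysosomal glucuronidase Gusb stood at -0.80 (adjusted p = 0.513), the glucuronyltransferase B3gat1 at 0.30 (adjusted p = 0.820) and Ugdh, which makes UDP-glucuronate, at 0.35 (adjusted p = 0.834). Gusb read the floor in 4 control and 2 denervated rats, and Ugdh in 7 and 4. With a common floor Gusb stood at -0.30 and Ugdh at 0.08.

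The other measured metalloproteinases were Mmp13, a collagenase, and Mmp23. Neither passed (0 before adjustment, 0 by exact permutation). Mmp13 differed by -0.72 (limma adjusted p = 0.571), by -0.16 with a common floor and by 0.47 in rats 1 to 4. Mmp23 stood at 0.39 (limma adjusted p = 0.789). When control rat 6 was left out it stood at -0.17. Of 4 other proteases and inhibitors none passed in limma, 2 did before adjustment and 0 by exact permutation. Mme, the membrane metallopeptidase neprilysin, stood at -1.19 (adjusted p = 0.117). It passed as lower with centred arrays (-1.40, limma adjusted p = 0.0474), with quantile-normalised arrays (-1.36, limma adjusted p = 0.0393) and among rats 1 to 4 alone (-2.42, limma adjusted p = 0.0162). Among rats 5 to 8 it stood at 0.03. Pzp, a protease inhibitor of the alpha-macroglobulin family, stood at 1.03 (adjusted p = 0.240) and the pancreatic-type elastase Cela1 at 0.30 (adjusted p = 0.834).

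S100a4 was 1 of 6 measured S100 genes, and no annexin was among the measured genes. None of the other 5 passed in limma (2 before adjustment, 1 by exact permutation). S100a10, which binds annexin A2, differed by 1.03 (limma adjusted p = 0.110), with 2.04 in rats 5 to 8 (adjusted p = 0.00118), and passed without control rat 4 (1.23, adjusted p = 0.0376). With the set of rats as a block it passed too (limma adjusted p = 0.0419), while rats 1 to 4 alone gave 0.03. S100a9, a subunit of calprotectin in neutrophils and monocytes, differed by -1.63 (adjusted p = 0.114, exact permutation adjusted p = 0.0471). In 3 control and 5 denervated rats it read the floor, and with a common floor its difference was -0.29 (limma adjusted p = 0.497). S100b stood at 0.41 (adjusted p = 0.748), S100a1, the form typical of striated muscle, at -0.41 (adjusted p = 0.677) and S100g at -0.05 (adjusted p = 0.970).

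Of 8 TGF-beta and BMP pathway genes none passed in limma (2 before adjustment, 1 by exact permutation), and 7 of the 8 differences were positive. After centring 7 were still positive, the smallest at 0.05, beside a median of 0.01 over all probes. Over all probes, 749 of 1176 differences were positive before centring. Acvr1c, an activin and nodal receptor, stood at 0.95 (limma adjusted p = 0.112, exact permutation adjusted p = 0.0410) and passed without control rat 2 (1.10, adjusted p = 0.0478) and with the set of rats as a block (adjusted p = 0.0363). Smad9, a BMP signal transducer, stood at 0.85 (adjusted p = 0.206) and Fst, the activin antagonist follistatin, at 0.57 (adjusted p = 0.437). Of 4 integrins and other receptors none passed (0 before adjustment, 0 by exact permutation), with Itga7, the laminin receptor subunit of muscle fibres, at -0.59 (adjusted p = 0.559), Itgae at -0.33 (adjusted p = 0.760) and Itgb7 at -0.25 (adjusted p = 0.869).

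**Figure D3:**
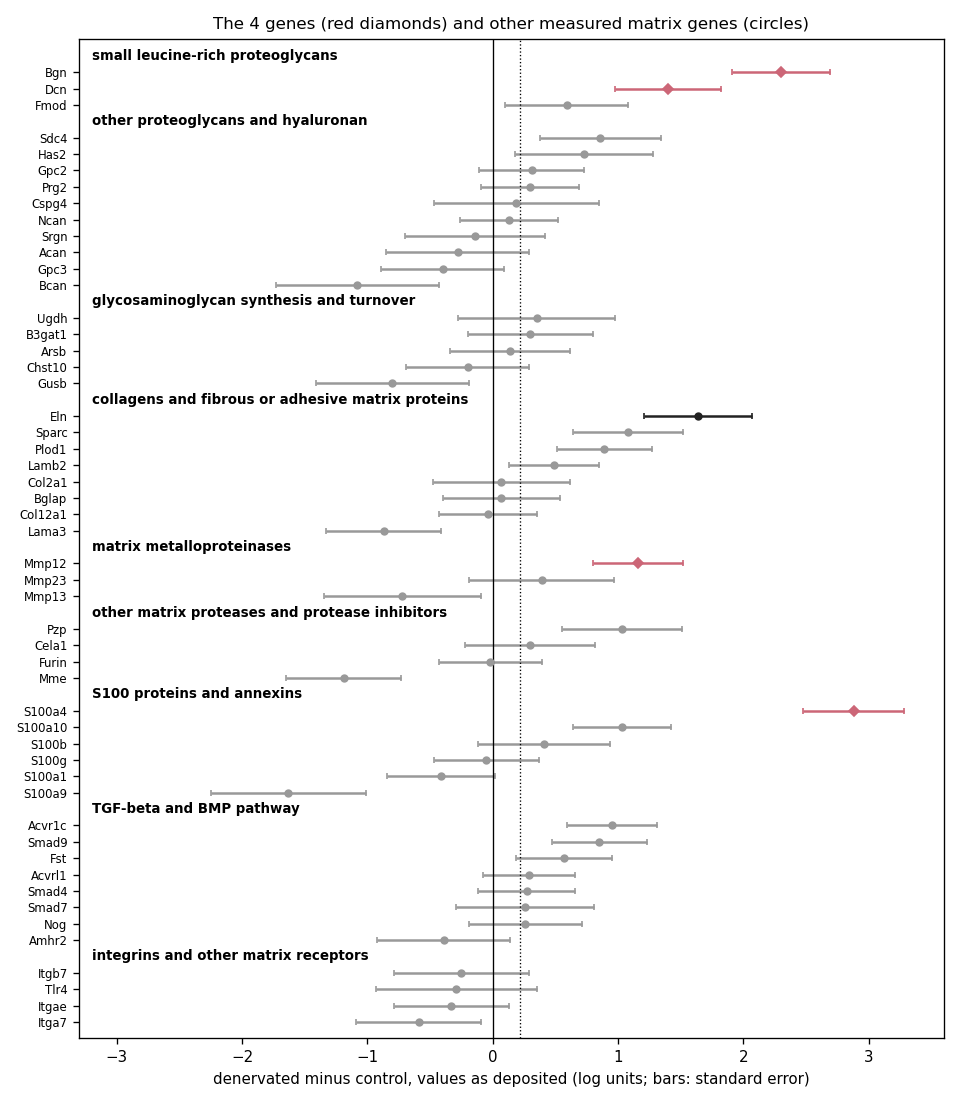
Denervated minus control differences in log units, with standard errors as bars, of the 4 genes (red diamonds) and of the other measured matrix genes by list; the 1 black circle, Eln at 1.64, passed limma's adjusted test and grey circles did not. The dotted line is the median of all probes, 0.22, and the 47 other genes lie on both sides of it.

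Markers of cell types that could carry these transcripts were measured only in part. Of 17 listed fibroblast markers only Thy1 was among the measured genes, at 0.64 (limma adjusted p = 0.371, not called before adjustment or by exact permutation). Its values ranged from 7.6 to 9.5 log units in control and 8.2 to 9.6 in denervated muscle. Of 45 listed macrophage and leukocyte markers 7 were measured and none passed in limma (3 before adjustment, 1 by exact permutation). Positive differences numbered 5 of 7, beside 749 of 1176 for all probes. The summed values of the 7 markers, with each array centred, ranged from 54.2 to 62.1 in control and from 51.7 to 64.5 in denervated muscle, so the groups overlapped. The chemokine Cxcl1, which read the floor in 4 control and 7 denervated rats, stood at -1.92 (adjusted p = 0.0550, exact permutation adjusted p = 0.0471). It passed as lower without control rat 4 and without denervated rats 3 and 4 (adjusted p = 0.0306 to 0.0467). The floors differed between arrays, and with a common floor the Cxcl1 difference was -0.15 (limma adjusted p = 0.557). Cd48, a leukocyte surface protein, and C1qb, a complement subunit made by macrophages, were named after their values were seen. They stood at 1.24 (adjusted p = 0.0688) and 0.95 (adjusted p = 0.138), and Cd48 passed without control rat 2 (adjusted p = 0.0479) and without control rat 4 (adjusted p = 0.0229). With the set of rats as a block 3 of these 7 markers passed in limma, beside 131 of 1176 for all probes. They were Cd48 (adjusted p = 0.0346) and C1qb (adjusted p = 0.0324) as higher and Cxcl1 (adjusted p = 0.0270) as lower. None of the 3 passed with centred arrays (limma adjusted p = 0.130, 0.265 and 0.0538 in this order). Quantile normalisation gave limma adjusted p = 0.142, 0.313 and 0.142, with the C1qb difference at 0.33.

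None of 3 mast cell markers (Fcer1a at 0.67, limma adjusted p = 0.315) or 3 endothelial and smooth muscle markers (Tagln at 0.55, adjusted p = 0.437) passed, with 0 before adjustment and 0 by exact permutation in each list. Of 11 nerve and Schwann cell markers Nefm rose by 1.38 (adjusted p = 0.0318), a call lost without any of control rats 3, 5 and 6 or denervated rats 1 to 4 (limma adjusted p = 0.0563 to 0.121) and with centred arrays (limma adjusted p = 0.126) and by exact permutation (adjusted p = 0.125). Its difference was 2.61 among rats 1 to 4 (limma adjusted p = 0.000182) and 0.14 among rats 5 to 8 (limma adjusted p = 0.889). Of 2 adipocyte markers Scd rose by 2.97 (adjusted p = 3.24e-05), from the floor on 5 control arrays, and of 6 muscle markers Mylk2 fell by 1.87 (adjusted p = 0.000418). Mylk2 stood at -2.67 among rats 1 to 4 (limma adjusted p = 0.000139) and at -1.07 among rats 5 to 8 (limma adjusted p = 0.0840). The part of these cell types in the 4 differences was not tested.

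Whether the 4 genes varied together between rats of the same group was a question that the choice of genes did not fix. Each array was centred on its median, and the 6 pairs in each group were tested by two-sided exact permutation over 40320 pairings, with adjustment over all 12 relations.

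In control muscle S100a4 and Mmp12 varied together. Relative to the array's median, S100a4 stood at -0.02, 2.47, 1.65, 1.84, -0.14, 0.87, 0.69 and 1.23 log units in rats 1 to 8. Mmp12 stood at 0.15, 1.86, 1.52, 0.92, -0.08, 0.70, 0.55 and 1.29. Both genes were lowest in rats 1 and 5 and highest in rat 2. Pearson's r was 0.93 (exact permutation p = 0.00144, adjusted p = 0.0112, n = 8) and Spearman's rho was 0.93 (exact permutation p = 0.00223, adjusted p = 0.0134). Without rats 2 and 5, the farthest from the S100a4 median, r was 0.83 (exact p = 0.0403). Without any 1 control rat it stayed between 0.89 and 0.98 (exact permutation adjusted p = 0.00238 to 0.0339).

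The r of this pair was similar on each scale, though its call was not kept on all of them. It was 0.95 with values as deposited (exact permutation adjusted p = 0.00952) and 0.92 with the means of the rat sets removed (exact permutation adjusted p = 0.0312). After quantile normalisation r was 0.89 and the pair no longer passed (exact permutation adjusted p = 0.0777). Among the 1175 other probes 0.60% correlated at least as well with S100a4 and 0.26% with Mmp12 in control muscle.

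The other 5 control pairs did not pass, with r of 0.37 for biglycan and decorin (exact permutation adjusted p = 0.442), -0.24 for biglycan and S100a4 (adjusted p = 0.572), -0.27 for biglycan and Mmp12 (adjusted p = 0.572), 0.44 for decorin and S100a4 (adjusted p = 0.400) and 0.37 for decorin and Mmp12 (adjusted p = 0.442). Their rho values were 0.43, -0.43, -0.48, 0.43 and 0.33 (exact permutation p = 0.243 to 0.428, adjusted p = 0.326 to 0.428). Control rat 1 had high decorin and biglycan but low S100a4, at 3.46, 1.06 and -0.02 relative to its array's median. Without it the r of decorin and S100a4 was 0.80 (exact permutation adjusted p = 0.0548).

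In denervated muscle r was positive for all 6 pairs and 5 passed with centred arrays, but none passed with values as deposited (exact permutation adjusted p = 0.0917 to 0.233) or after quantile normalisation (exact permutation adjusted p = 0.914 for each). The highest was that of biglycan and Mmp12, at 0.92 (rho 0.93, exact permutation p = 0.00186, adjusted p = 0.0112, n = 8). S100a4 and Mmp12 had 0.87 (rho 0.90, exact permutation adjusted p = 0.0291), and decorin and S100a4 0.85 (rho 0.90, exact permutation adjusted p = 0.0312). Biglycan and S100a4 had 0.79 (rho 0.74) and decorin and Mmp12 0.78 (rho 0.81), each with an exact permutation adjusted p of 0.0473. Biglycan and decorin had 0.69 (rho 0.69, exact permutation adjusted p = 0.103). The rho of 2 of the 5 passing pairs missed the threshold, at an exact permutation adjusted p of 0.0917 for biglycan and S100a4 and 0.0523 for decorin and Mmp12. With the means of the rat sets removed, decorin still passed with S100a4 (r 0.91, exact permutation adjusted p = 0.0312) and with Mmp12 (r 0.86, exact permutation adjusted p = 0.0347). Biglycan and Mmp12 (r 0.76, exact permutation adjusted p = 0.143), S100a4 and Mmp12 (r 0.66, adjusted p = 0.143) and biglycan and S100a4 (r 0.46, adjusted p = 0.373) did not.

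These relations rested in part on the outer arrays. Without denervated rats 4 and 7, the farthest from the median in every pair, r was 0.86 for biglycan and Mmp12 (exact p = 0.0319) and 0.78, 0.73, 0.54, 0.52 and 0.19 for the others in the order above (exact p = 0.0708 to 0.729). Leaving out denervated rat 4 alone ended all 5 calls (exact permutation adjusted p = 0.0923 to 0.229). That of biglycan and Mmp12 was kept without any other single rat. Bgn with S100a4 passed only without rat 3, Dcn with S100a4 only without rats 2 and 3, Dcn with Mmp12 only without rats 3 and 8, and S100a4 with Mmp12 only without rats 2, 3 and 8. Biglycan and decorin passed without rat 3 (r 0.92, exact permutation adjusted p = 0.0113).

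The width of the array's distribution moved with these values. In denervated muscle the 90th percentile lay between 1.37 and 2.65 log units above the array's median, and its r was 0.97 with Mmp12 (rho 1.0), 0.94 with biglycan (rho 0.93), 0.91 with S100a4 (rho 0.90) and 0.76 with decorin (rho 0.81) over the 8 arrays. These values are a description with no test. Mmp12 and biglycan lay near that percentile on every denervated array, at 83.1% to 90.0% and 90.0% to 94.5%, so their centred values and the width are in large part the same measurement. Without the 2 arrays farthest from the median width, r was 0.96, 0.83, 0.84 and 0.42. After quantile normalisation, which removes differences in width, the 6 denervated r values lay between -0.16 and 0.08. In control muscle the width correlated with decorin at 0.98 (rho 0.93, 0.96 without the 2 farthest). With S100a4 it was 0.53 (rho 0.60) and with Mmp12 0.50 (rho 0.52), and these were 0.18 and 0.12 without the 2 farthest arrays. With biglycan it was 0.34 (rho 0.17, 0.63 without the 2 farthest).

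**Figure D4:**
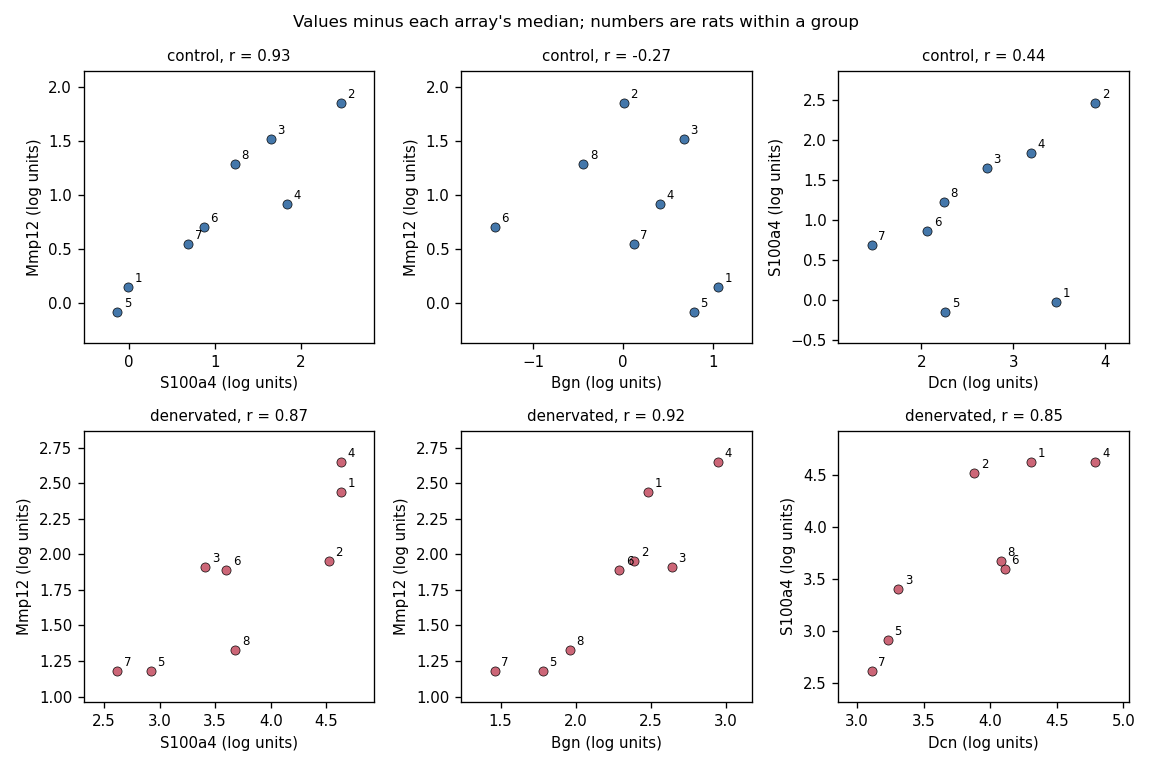
Values minus the array's median, in log units, for 3 pairs of genes in control (blue) and denervated (red) rats, each point a rat with its number. For S100a4 and Mmp12 r is 0.93 in control and 0.87 in denervated rats, and 0.89 and 0.05 after quantile normalisation; for Bgn and Mmp12 it is -0.27 and 0.92, and the denervated value becomes -0.09 after quantile normalisation. The difference between groups was not tested.

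Many other probes varied with the members too. In denervated muscle 2.81% of probes correlated with biglycan at least as well as Mmp12 did, and 15.74% at least as well as S100a4 did. The median r of a member with all other probes ran from 0.17 to 0.29 in denervated and from 0.09 to 0.17 in control muscle.

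The probes most like each member were taken from 1000 probes by the correlation of array-centred values over all 16 arrays with group means removed. For S100a4 they were Smad9 (r 0.93), Ddt, D-dopachrome tautomerase (0.90), and the kinase Rock1 (0.88). For Mmp12 they were Smad9 again (0.92), the adaptor Grb14 (0.88) and the microtubule protein Map1b (0.85). The r of S100a4 and Mmp12 themselves over these 16 arrays was 0.90, and 0.84 after quantile normalisation. Smad9 kept 0.86 with each after quantile normalisation.

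Decorin was most like Clec10a, a galactose-binding lectin of macrophages and dendritic cells (0.98), Fth1, the ferritin heavy chain (0.95), and Cox6c, a cytochrome c oxidase subunit (0.94). Clec10a, which was in none of the cell type lists, passed as higher in denervated muscle (1.19, limma adjusted p = 0.0409). Fth1 (0.49, limma adjusted p = 0.549) and Cox6c (0.83, limma adjusted p = 0.357) did not pass. All 3 lay high on the arrays, with 94.7%, 97.7% and 99.3% of probes lower in the median array. After quantile normalisation they stood at 0.67, 0.71 and 0.71. Biglycan was most like the peptide hormone gene Ucn (0.84), Mmp23 (0.83) and Errfi1, an inhibitor of EGF receptor signalling (0.81). Mmp23 followed biglycan in control rats (r 0.96) more than in denervated rats (0.35), a contrast that was not tested. After quantile normalisation Ucn, Mmp23 and Errfi1 stood at 0.72, 0.91 and 0.71 with biglycan. The correlations of centred values can share the arrays' widths, and all of them are descriptions.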

How the data were processed

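The authors deposited 1 normalised score per probe and array. Per the labels, cDNA on Clontech Atlas membranes was imaged by phosphorimager, quantified with Array Vision and normalised by linear regression; the sources used here do not give the log base or the background correction. Of 1185 probes, 9 probes with an identifier of another form, taken as reference spots, were left out. The platform table gave 1 gene to 1106 tested probes, several to 2 and none to 68, and 1099 of the 1106 gene IDs were in RefSeq's GRCr8 table. For several probes of a gene the brightest was used. The number of arrays limits the precision.

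The 2 groups of arrays were set against each other by two-sided limma 3.58.1 under R 4.3.3 (lmFit, eBayes with trend), with Benjamini-Hochberg adjustment over 1176 probes and a threshold of 0.05. Exact permutation per probe used 12870 groupings. Correlations used Python 3.11.15 and array-centred values. The scripts were tested on simulated data.

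The 4 genes and the lists were chosen with earlier results of these data known. The rule for names took all measured small leucine-rich proteoglycan, metalloproteinase, Timp (none measured) and S100 genes, the called genes or at least the 3 of lowest adjusted p in other matrix lists, the called genes or the 1 of lowest adjusted p in cell type lists, and the 3 probes most like each member, among probes at the floor on at most 4 arrays. No listed blood marker was measured. The width of the arrays was examined after the values were seen. Labels number the rats within each group but do not say whether equal numbers in both groups mark 1 animal. The p-values measure the spread between these samples. Alternatives were centring, quantile normalisation, array weights, rat number or set as a block, each set alone, a common floor of 6.69, the reference probes, the brighter probes and each array left out.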

Additional observations from a re-analysis of the deposited data

Results flagged for a closer look

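In 48 named genes, each group of 8 was checked on both scales for a sample whose gap to its neighbour, as a share of the group's range, exceeded Dixon's 95% critical value for 8 samples. Chance flags about 1 in 20 groups, and 192 groups were checked, so these are values and no more. Control rat 6 was lowest in Bgn (share 0.614, value 5.56), Errfi1 (0.701 as deposited, 0.533 centred), Map1b (0.659), Pzp (0.550) and Ucn (0.736). After centring only Errfi1 among these 5 still exceeded the limit in that rat. Denervated rat 3 was lowest in Fmod (0.617, value 8.31) and Scd (0.666 as deposited, 0.700 centred). Control rat 4 was lowest in Itga7 (0.547 as deposited, 0.543 centred) and Cela1 (0.581 centred), and denervated rat 7 in Itgae (0.567).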

How the results depend on the processing

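The differences of Bgn, S100a4 and Mmp12 kept their sign and moved by less than the SD between control rats under every alternative run. That of Dcn kept its sign too and moved by more only after quantile normalisation (0.39). The denervated SDs were smaller, from 0.27 to 0.62, and quantile normalisation moved each of the 4 differences by more than its denervated SD. Rat number as a replicate block left the 4 differences as they were and moved the changed probes from 74 to 113 and the changed matrix genes from 1 to 3. Same-numbered arrays correlated at 0.059 to 0.193 in their deviations and 5 of 16 arrays correlated best with their own number. These values do not settle whether equal numbers mark pairs, and the labels do not say so. The main fit therefore used no pairs. Changed probes numbered 131 with the set of rats as a block, 30 in rats 1 to 4, 139 in rats 5 to 8, 171 there without control rat 6, 141 with centring and the replicate block together, and 43 to 98 without 1 array (49, 45 and 48 without control rats 5, 7 and 8, and 43 and 46 without denervated rats 1 and 6). Centring gave 35 higher and 15 lower, and quantile normalisation 35 and 27, beside 64 and 10. Changed matrix genes numbered 4 with the set as a block, 5 in rats 5 to 8 with or without control rat 6, 5 with centring and block, 0 with a common floor, 2 by exact permutation and 0 to 2 without 1 array (2 without control rats 2 and 4, 0 without control rat 8).

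With values as deposited, control r turned to 0.27 for Bgn and S100a4 and 0.36 for Bgn and Mmp12. The denervated r of Bgn with S100a4 and Mmp12 (0.64, 0.80), of Dcn with both (0.75, 0.67) and of S100a4 with Mmp12 (0.78) no longer passed. Quantile normalisation gave 0.08, -0.09, -0.11, -0.16 and 0.05 in the same order, -0.18 for Dcn and Mmp12 in control, and 0.89 for S100a4 and Mmp12 in control. Removing set means gave -0.18 for Bgn and Dcn in control, and in denervated rats 0.46 for Bgn and S100a4, 0.76 for Bgn and Mmp12 and 0.66 for S100a4 and Mmp12, none passing. Without 1 array, denervated r ranged from 0.50 to 0.92 for Bgn and Dcn, 0.66 to 0.91 for Bgn and S100a4, 0.87 to 0.95 for Bgn and Mmp12, 0.79 to 0.92 for Dcn and S100a4, 0.65 to 0.91 for Dcn and Mmp12 and 0.83 to 0.91 for S100a4 and Mmp12. Control Dcn and Mmp12 ranged from -0.01 (without rat 2) to 0.65. Calls lost without 1 array were tested on fewer arrays. The cause of the other changes was not tested.

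Signs of uncalled genes turned in rats 1 to 4 for Fmod (-0.30), Gusb (0.04), Mmp13 (0.47), Mmp23 (-0.50) and Ugdh (-0.29), and in rats 5 to 8 for Cela1 (-0.31), Mme (0.03), S100a1 (0.15) and S100g (0.05). Without control rat 6 in that set they turned for B3gat1 (-0.07), Cela1 (-0.56), Pzp (-0.29) and S100b (-0.73), and for the called Nefm (-0.13). Mmp23 turned with array weights (-0.18), a common floor (-0.12) and without control rat 6 (-0.17), and Fmod after quantile normalisation (-0.46). S100g ranged from -0.21 to 0.14 without 1 array. The fits of rats 5 to 8 without control rat 6, the fits with 2 changes together and the correlations without 1 array, other than control rat 6, were chosen after seeing the data. Values at the array floor limit what can be said of Bcan, Gusb, Ugdh, Mmp13, S100a9 and Cxcl1.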
